A study of Mus musculus with 2 samples.

Results

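The collagen chain genes are the 42 autosomal protein-coding genes of GENCODE release M21 whose symbols have the form of a collagen alpha chain (Col, a type number, a and a chain number), out of 20807 autosomal protein-coding genes. They were described by the CTCF binding sites in and around them in newborn mouse stomach. The data are ChIP-seq of CTCF, the zinc finger protein found at insulators and at the anchors of chromatin loops, in stomach tissue of B6NCrl mice on the day of birth. The samples form 1 group of 2 biological replicates, which per the labels share their donor and their tissue sample. Differences between the replicates may therefore be technical. No genetic change or treatment is labelled, sex was not collected, and control libraries are not analysed here. With 1 group there was no contrast between conditions, so the comparisons are between the collagen genes and all autosomal coding genes, between classes of collagen, and between replicates. The lists hold peaks and no expression values, so neither the tissue's cell types nor the activity of any collagen gene was checked.

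Collagens are secreted proteins in which long stretches of repeating glycine-containing triplets, rich in proline, wind into a triple helix. The 11 fibrillar chains build the fibrils of connective tissue, such as those of the stomach submucosa. The 4 autosomal type IV chains form sheets in basement membranes, such as those under epithelium, and their genes lie in head-to-head pairs that share a promoter region. The other 27 chains include the FACIT collagens that coat fibrils, the beaded filament chains of type VI, the anchoring fibril chain Col7a1, the short-chain network formers, the multiplexins and the transmembrane collagens. CTCF binds a long, directional DNA motif, and pairs of sites whose motifs face each other are known to mark the ends of many loops.

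A peak was placed by its summit, the base of highest enrichment, in the authors' optimal list, which held 72514 peaks on the autosomes. It was counted as near a gene when the summit lay within 10 kb of the start of any of the gene's annotated transcripts (TSS), and as a body peak when it lay between the ends of the gene record. Annotated transcripts include short ones that start inside a gene, so the distance from the start of the gene record is given as well. The signal of a peak is the value of the authors' peak caller. It has no unit, it ran from 4.99 to 677 over these peaks, with a median of 76.3, and it is not scaled between lists.

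A motif of 19 bases was learned from strong peaks of chromosome 1 that were not collagen peaks. Its most frequent bases are shown here, with capitals for positions carrying at least 1 bit of information, because all motif calls rest on it.

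CTCF motif: tggCCaCcAGGgGGCacta

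The best matches in the strongest peaks near a TSS are shown for the 2 type IV chains that had one, the 3 fibrillar chains with the highest signal and the 5 other chains with the highest signal, with the match in capitals and 5 flanking bases in lower case, 5′ to 3′ on the strand of the match. Positions are those of the capitals in mm10.

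Col4a1, intron 2, chr8:11253678-11253696, plus strand: tagtcTGGCCACCAGGGGGAGAGCttggt
Col4a2, beyond the 3′ end, chr8:11450832-11450850, plus strand: agctcTAGCCACTAGAGAGCAGCCtatga
Col27a1, intron, chr4:63215296-63215314, plus strand: tgctgCGTCCGGCAGGGGGCAGCAgttgg
Col1a1, intron 6, chr11:94939462-94939480, plus strand: atggtGAGCCACCAGGGGGAGCAGtgacc
Col1a2, beyond the 3′ end, chr6:4545925-4545943, minus strand: ctatcCAGCCAGCAGGGGGAGCAGtggac
Col16a1, intron 55, chr4:130087529-130087547, minus strand: gccatTGACCAGGAGGGGTCAGCAcagtt
Col18a1, intron 5, chr10:77082709-77082727, plus strand: aagtcTGACCACAAGAGGGCAGCAtgggc
Col13a1, upstream, chr10:61980612-61980630, plus strand: actcaGAACCACTAGGGGGCGCTGgagag
Col23a1, upstream, chr11:51289618-51289636, plus strand: gctttTGGCCACCAAGCGGCGCTCagcta
Col14a1, upstream, chr15:55306453-55306471, plus strand: cgacgCAGGCGGCAGGTGGCGCTCtcacc

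Nearly all collagen genes had CTCF close by. A peak lay within 10 kb of a TSS in 39 of the 42 genes (92.9%, exact 95% interval 80.5 to 98.5%), and in 74.2% of all autosomal coding genes. The share was 11 of 11 among fibrillar chains, 2 of 4 among type IV chains and 26 of 27 among the others. Col4a3, Col4a4 and Col6a5 had none. Collagen genes are long, with a median length of 110 kb against 17.6 kb over all coding genes. Among genes of 100 kb and longer, 21 of 24 collagen genes (87.5%) had a peak within 10 kb of a TSS, beside 87.6% of 2372 coding genes, so by this count the shares among long genes were nearly equal. Close to the starts the shares were also alike: 20 of the 42 collagen genes (47.6%) had a peak within 1 kb of a TSS, against 47.0% of all coding genes. Counted from the start of the gene record alone, 37 of the 42 collagen genes (88.1%) had a peak within 10 kb, against 68.7% of coding genes. For genes of 100 kb and longer that share was 83.3% in collagen genes and 73.9% in coding genes.

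The strongest peak within 10 kb of a TSS had a median signal of 326 over the 39 collagen genes that had one, with a range of 27.5 to 511, and a median of 243 over coding genes. By class the median was 265 over 11 fibrillar, 412 over 2 type IV and 350 over 26 other chains. The 2 type IV values, 496 in Col4a1 and 328 in Col4a2, came from peaks 59134 and 138046 bp from the gene starts. Within 10 kb of the gene start, the strongest peak of each had a signal of 47.4. From the start of the gene record alone, the medians over all members and all coding genes were 185 for collagen genes and 173 for coding genes. For genes of 100 kb and longer, the medians from any TSS were 313 in collagen genes and 236 in coding genes. From the start of the gene record they were 163 and 114 at that length. Within 1 kb of a TSS, over genes of any length, the order was reversed, with medians of 63.3 in collagen genes and 84.1 in coding genes. What lies behind these differences was not tested. Over all 247 collagen peaks, of which 144 were near a TSS and 210 were in gene bodies, the median signal was 89.6, against 76.3 for the whole list. A signal of 400 or more was reached by 23 collagen peaks (9.31%) and by 7.70% of all peaks.

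**Figure D1:**
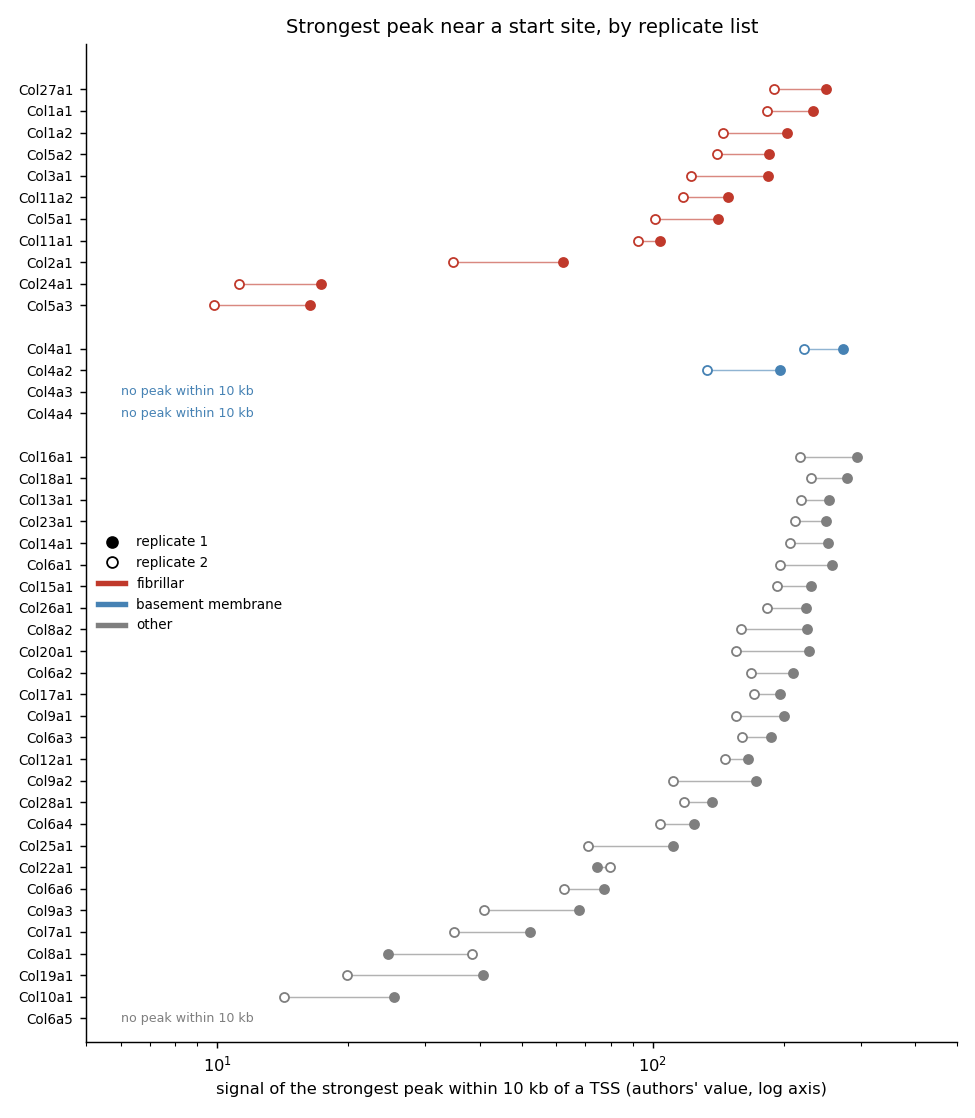
Signal of the strongest peak within 10 kb of a TSS for each collagen gene (log axis), in the replicate 1 list (filled) and the replicate 2 list (open), by class. Each line joins the values of 1 peak. Values are not scaled between the lists, so their distance has no meaning by itself. Col5a3 and Col24a1 are the lowest of the fibrillar chains.

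Type I collagen, the main collagen of most connective tissue, is made of 2 fibrillar chains, whose strongest sites lay near the start of Col1a1 and beyond the end of Col1a2. Col1a1 (chromosome 11, 94936224 to 94953042, plus strand, 16.8 kb) held 5 peaks, all in its body. The strongest, 3249 bp from the gene start in intron 6, had a signal of 414, with 233 in the replicate 1 list and 183 in the replicate 2 list. The next, 937 bp from the start in intron 1, had a signal of 407, with 225 in replicate 1 and 186 in replicate 2. The motif of the peak in intron 1 was antisense to the gene and that in intron 6 was sense, so the pair pointed away from each other. A weak peak of signal 20.5 lay 72 bp from the start in the 5′ untranslated region and had no motif.

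In Col1a2 (chromosome 6, 4504814 to 4541544, plus strand, 36.7 kb), a peak of 177 lay in intron 1, 1596 bp from the start, with 86.9 in replicate 1 and 88.5 in replicate 2. The strongest peaks of the locus, 345 and 202, lay beyond the 3′ end, 41118 and 39946 bp from the gene start. Their motifs were antisense in the stronger and sense in the weaker. They counted as near a TSS only through short transcripts that start close to the 3′ end, 8443 and 7271 bp away. Near the start of Col1a2 the remaining peak, of signal 29.8 in the first exon, had a counterpart in the replicate 1 list (23.5) and none in the replicate 2 list.

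Type III and type V collagens form mixed fibrils with type I. Col3a1 (chromosome 1, 38.2 kb) had a single peak, of signal 306, in intron 1 at 2599 bp, with 184 in replicate 1 and 122 in replicate 2 and an antisense motif. Its neighbour Col5a2 (129 kb), transcribed towards it, had a peak of 82.4 without a motif in intron 1 and one of 326 in intron 6, 71203 bp from its start. The 24614 bp between the 3′ ends of Col3a1 and Col5a2 held no peak. Col5a1 (chromosome 2, 153 kb) had 3 peaks near its start, of which the strongest, 243, lay in intron 1, 904 bp from the gene start. Col5a3 (chromosome 9, 45.0 kb) had a single peak near a TSS, 27.5 at 2222 bp with no motif, which was the lowest of the strongest near peaks of all members. Just past the 10 kb limit, at 10663 bp in intron 8, Col5a3 carried a peak of 371 with a sense motif.

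The remaining fibrillar chains, including those of cartilage, differed widely. Col2a1 (chromosome 15, 29.1 kb) had peaks of 98.3 in intron 16 and 50.8 in intron 1, neither with a motif. For the stronger the replicate values were 62.3 and 34.8 in lists 1 and 2. Col11a1 (chromosome 3, 190 kb) had peaks of 196 at 2000 bp, 194 at 116788 bp and 174 at 76763 bp, all with a motif. Col11a2 (chromosome 17, 27.2 kb) had only a weak peak of 22.6 close to its start, 175 bp upstream, and the peak of 265 counted for it lay inside the neighbouring gene Rxrb, 437 bp from a start of Rxrb. Col24a1 (chromosome 3, 260 kb) had 1 weak peak near a TSS, of 28.5, at 2215 bp upstream, while the strongest of its 7 body peaks reached 211. Col27a1 (chromosome 4, 121 kb) had 4 peaks within 3 kb of its start: 81.9 at 47 bp upstream, then 439, 222 and 16.5 at 1306, 2145 and 2893 bp. Apart from the weakest, each of these 4 had a motif.

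**Figure D2:**
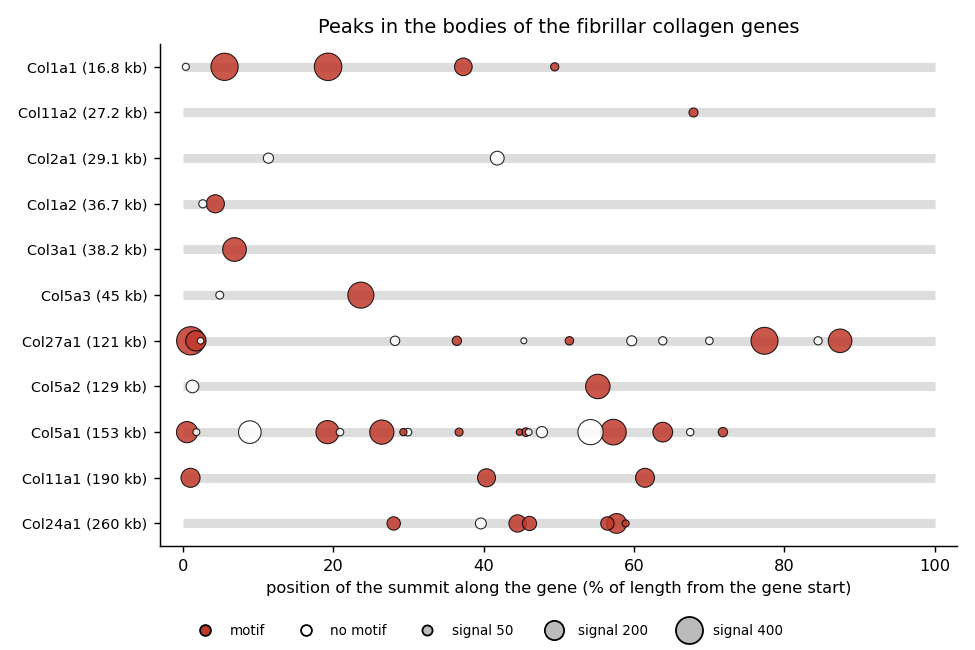
Body peaks of the 11 fibrillar genes, placed by the percent of gene length from the gene start, with genes ordered by length. Circle area grows with signal, and red marks a motif. Col5a1 carries 18 peaks and Col27a1 carries 13, while Col3a1 and Col11a2 carry 1 each.

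At the shared promoters of the type IV pairs, CTCF was weak in the Col4a1 and Col4a2 pair and not called in the Col4a3 and Col4a4 pair. Col4a1 (chromosome 8, 11198423 to 11312826, minus strand) and Col4a2 (chromosome 8, 11312805 to 11449287, plus strand) overlap slightly at their starts. A single peak of signal 47.4 lay there, in the first coding exon of Col4a1, 260 bp from the start of its record and 239 bp upstream of Col4a2. Its values were 27.0 in replicate 1 and 20.6 in replicate 2, and its best motif score, 11.2, was just under the threshold of 11.6. Col4a3 (chromosome 1, 82586921 to 82722059, plus strand) and Col4a4 (chromosome 1, 82448423 to 82586849, minus strand) start 72 bp apart, and no optimal peak lay within 1 kb of those starts. A peak within 1 kb of a start was found in 1 of the 2 collagen pairs and in 60.9% of the 1170 head-to-head pairs of autosomal coding genes.

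For Col4a3 and Col4a4 the nearest optimal peak lay just past the 10 kb limit, 10411 bp from a start of Col4a4, with a signal of 40.6. The member just inside the limit was Col10a1, whose only peak lay 9471 bp from its start with a signal of 41.3. In the relaxed lists, which hold many weak peaks, replicate 1 had a summit 5 bp from a start of Col4a4 with a signal of 6.29 (rank 121123). The nearest summit of replicate 2 was 1054 bp away with a signal of 3.68 (rank 172676). Both of these ranks lay far below the 72514 strongest peaks used to compare replicates. For Col4a3 the strongest relaxed summit within 10 kb of a TSS had a signal of 7.08 (rank 108405) in replicate 1. In replicate 2 it had 8.28 at 9629 bp, and its rank of 75945 lay just past that number. Within 10 kb of a TSS, 5 motif matches were found for Col4a3 and 2 for Col4a4, none with a peak, and 3 and 2 of them lay in masked repeats.

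The strong type IV sites lay deep in the genes. In Col4a1 the strongest peak, 496, lay in intron 2, 59134 bp from the gene start and 8087 bp from an internal transcript start, with 273 in replicate 1 and 222 in replicate 2. A peak of 368 lay in intron 40, with 201 in replicate 1 and 169 in replicate 2. Col4a2 held 12 body peaks, the strongest being 445 in intron 4 (251 in replicate 1 and 196 in replicate 2) and 364 in intron 20 (197 in replicate 1 and 166 in replicate 2). A further peak of 328 lay beyond its 3′ end. In Col4a3 the only peak, 488, lay 54944 bp from the start in intron 2, with 261 in replicate 1 and 228 in replicate 2. Col4a4 had 5, the strongest being 372 in intron 37 and 297 in intron 4. The site of Col4a3 is shown because it is the sole peak of that gene; it was chosen after its value was seen.

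Col4a3, intron 2, chr1:82641862-82641880, minus strand: caattTCGCCACCAGGGGGCGGTCttgtt

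The motif directions differed between the pairs. The strongest peaks on either side of the Col4a1 and Col4a2 start, 496 and 445, had motifs that faced each other across it. The strongest peaks on either side of the Col4a4 and Col4a3 start, 372 and 488, both had motifs on the minus strand and so pointed the same way.

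**Figure D3:**
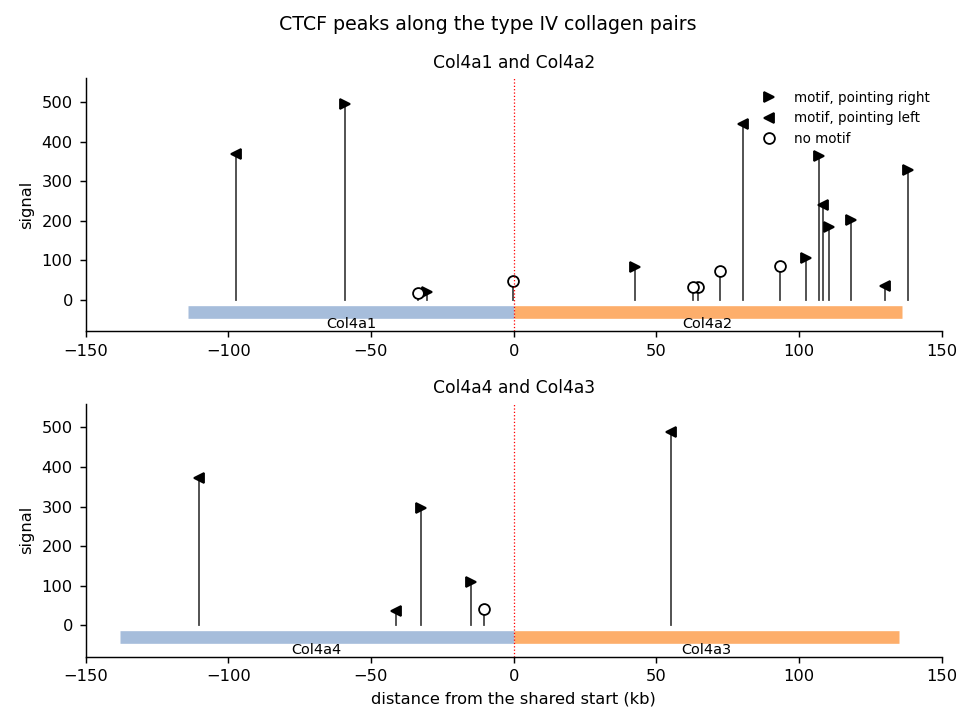
Optimal peaks along the type IV pairs, by distance from the shared start in kb (horizontal) and signal (vertical). Arrowheads show the direction of the motif and open circles peaks without a motif; bars mark the genes. The tallest peaks on either side of each start lie over 30 kb away, and the peak at the Col4a1 and Col4a2 start has a signal of 47.4.

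Among the other chains, the 10 genes with the strongest peak near a TSS ranged from 383 to 511. For 4 of them that peak lay upstream of the gene. Col13a1, a transmembrane collagen, had 469 at 1519 bp upstream (253 in replicate 1 and 219 in replicate 2). Col23a1, another transmembrane chain, had 462 at 292 bp upstream (249 in replicate 1 and 212 in replicate 2). Col14a1, a FACIT chain, had 454 at 1284 bp upstream (252 in replicate 1 and 206 in replicate 2). Col6a1 (17.4 kb), a type VI chain, had no body peak and 3 strong peaks upstream, 387, 336 and 453 at 2412, 7263 and 9053 bp. Of these only the strongest, with 258 in replicate 1 and 196 in replicate 2, had a motif.

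For the next 6 of these 10 genes the peak lay inside the gene, over 10 kb from the start of its record. In each of the 6 it counted as near a TSS through the start of an internal transcript. Col16a1, a FACIT chain, had 511 in intron 55 at 39695 bp (294 in replicate 1 and 218 in replicate 2), the highest value near a TSS of any member. Col18a1, the multiplexin whose C-terminal fragment is endostatin, had 507 in intron 5 at 83825 bp (279 in replicate 1 and 231 in replicate 2). Col15a1, the other multiplexin, had 422 at 47687 bp and 408 at 26869 bp. Col26a1 had 406 at 127313 bp and, close to its start, 379 at 1642 bp in intron 1. Col8a2, a short-chain network former of 27.5 kb, had 10 peaks near a TSS, the most of any member, with 385 in intron 3 as the strongest. Col20a1 had 383 in intron 9 at 10094 bp.

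The remaining 16 other chains with a peak near a TSS ranged from 41.3 in Col10a1 to 378 in Col6a2. In Col6a2 the peak lay in the 5′ untranslated region, 178 bp from the gene start. Col17a1, a hemidesmosome collagen of squamous epithelium, had 366 and 236, both in introns and near internal starts only. Col22a1 likewise had no peak within 10 kb of its gene start and 4 near internal starts. Col7a1, the anchoring fibril chain, reached 87.9 in intron 12. Col6a5 had no peak within 10 kb of a TSS. Its only peak, of 408 with 234 in replicate 1 and 177 in replicate 2, lay 102641 bp from the start, near its 3′ end. In the relaxed lists the strongest summit within 10 kb of a Col6a5 TSS reached 6.41 in replicate 1 and 13.7 in replicate 2. The last belongs to the 72514 strongest peaks of replicate 2 (rank 56292), so Col6a5 was called near a TSS in that list alone. The gaps between the neighbouring type VI genes Col6a6, Col6a5 and Col6a4, which are transcribed in the same direction, held 1 peak of 140 and 2 peaks of up to 248.

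Gene bodies held CTCF in most collagen genes and at about the density of other genes. A body peak was found in 40 of 42 collagen genes (95.2%), all but Col6a1 and Col10a1, and in 60.4% of all coding genes. Among genes of 100 kb and longer, the share was 24 of 24 for collagen genes and 97.6% for coding genes, with a median of 5.5 body peaks in collagen genes and 6.0 in coding genes. Over their combined length of 4.84 Mb, collagen bodies held 43.4 summits per Mb, against 40.0 per Mb in all coding gene bodies. The number of body peaks followed gene length with a Spearman rho of 0.621 over the 42 collagen genes and 0.663 over all coding genes, as a description across genes, which are not independent.

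Members departed widely from that average. Col5a1 had the most body peaks, 18 in 153 kb, or 118 per Mb. Their signals ran from 15.9 to 359, and 7 of them were not found in both replicates. Col27a1 and Col18a1 had 13 each, and Col4a2 and Col23a1 had 12 each. The strongest peak of any collagen gene lay in Col18a1, 35795 bp from its start, with a signal of 617 (rank 30 in the optimal list), 327 in replicate 1 and 294 in replicate 2. Next came 559 in intron 23 of Col22a1, 521 in intron 3 of Col26a1 and 520 in intron 5 of Col23a1. At the other end, the 135 kb of Col4a3 and the 105 kb of Col6a5 held 1 peak each, and the 129 kb of Col5a2 held 2. In members of 100 kb and longer the number ran from 0.740 to 11.8 peaks per 100 kb, with a median of 3.20, against a median of 2.94 over coding genes of that length. Divided into 4 equal stretches from start to end, these bodies held 42, 42, 42 and 39 of 165 peaks, against 27.9%, 22.3%, 23.0% and 26.8% of peaks in coding genes of that length.

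**Figure D4:**
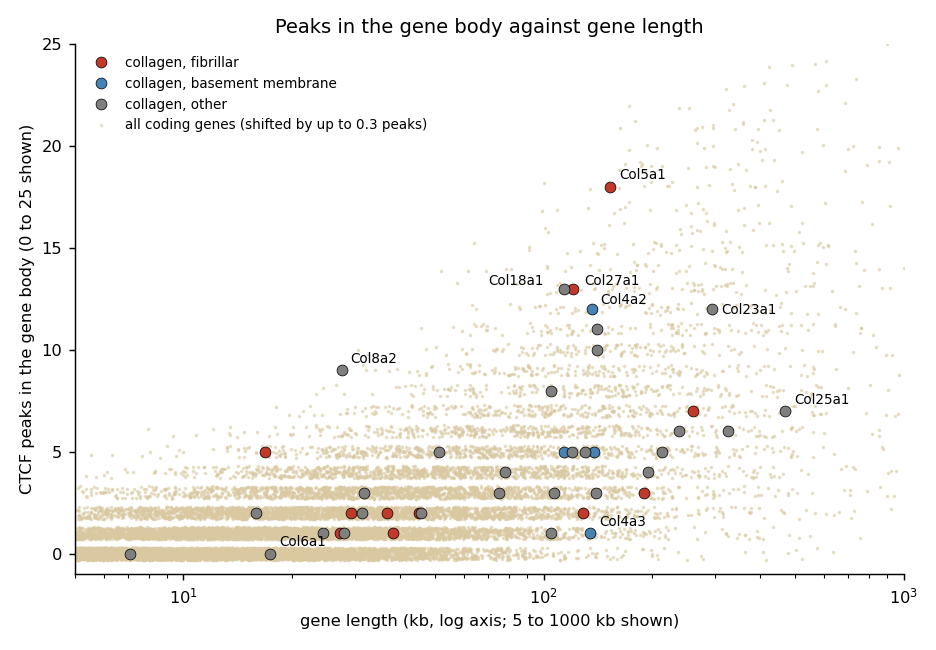
Number of optimal peaks in the gene body against gene length in kb (log axis) for the collagen genes (coloured by class) and for all autosomal coding genes (pale points). Collagen genes spread through the cloud of other genes, with Col5a1 (18 peaks) and Col8a2 (9 peaks in 27.5 kb) along its upper edge and Col4a3 (1 peak) along its lower.

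The motif was present within 50 bp of the summit in 176 of 247 collagen peaks (71.3%, interval 65.2 to 76.8%), against 69.7% of all autosomal peaks and 1% of random windows. By class the motif share was 62.5% for fibrillar, 70.8% for type IV and 74.8% for other chains. In collagen peaks 18.8% of the motifs lay in masked repeats (interval 13.3 to 25.3%), against 29.4% in all peaks. In collagen bodies 74 motifs were sense and 70 antisense (51.4% sense), against 49.4% sense in all coding bodies. Of 106 neighbouring pairs of motif-bearing body peaks, 32 faced each other (30.2%), against 23.2% of pairs in all coding bodies. Neighbouring pairs share a peak with the next pair, so no interval is given.

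Most collagen peaks, 194 of 247 (78.5%), had their summit in an intron, against 43.9% of all peaks. Collagen peaks were chosen for lying in or near genes, while 45.3% of all peaks lay outside coding genes. Shares against all peaks are therefore not like for like. Among body peaks alone, 91.0% of 210 in collagen genes were intronic (interval 86.2 to 94.5%), against 80.2% in all coding genes. These body shares were not matched for gene length, and collagen genes are longer. A coding exon held 10 collagen peaks (4.05%, interval 1.96 to 7.32%), against 3.68% of all peaks. Among body peaks the coding exon share was 4.29% in collagen genes (interval 1.98 to 7.98%) and 6.73% in all coding genes. Of the 10, 9 were in exons of collagen genes and the last in Slc39a7, next to Col11a2. The strongest was in exon 33 of Col16a1, with 357 in the optimal list, 215 in replicate 1 and 142 in replicate 2. The next was in exon 19 of Col28a1, with 256, 137 in replicate 1 and 118 in replicate 2. The peaks in Col4a1, Col12a1 and Col23a1 exons had no motif. The other 6 sites are shown because here the protein code and a CTCF motif under a peak share bases. That of Col28a1 straddles the edge of its exon, with its centre outside. The exon number is that of the longest coding transcript.

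Col16a1, exon 33, chr4:130067016-130067034, plus strand: tgcccTAGCCTGCAGGGGGCGTTGaccga
Col28a1, exon 19, chr6:8086995-8087013, minus strand: tttttTATCCACCAGGGGGAGCCAggcac
Col6a3, exon 2, chr1:90830197-90830215, plus strand: aaagaCAGCCACTAGGGGCAGATGccggt
Col8a2, exon 3, chr4:126309677-126309695, minus strand: cagctCCGCCGCCAGAGGACACTCttggc
Col20a1, exon 12, chr2:180998420-180998438, minus strand: gagtgACCCCAGCAGAGGGCGGCCaggtg
Col7a1, exon 29, chr9:108962984-108963002, plus strand: tcctaGGGCCAGAAGGGGGAGCCTggagt

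Glycine codons begin with GG and proline codons with CC, and both letter pairs are part of the motif. Collagen coding exons held 63 motif matches in 0.192 Mb, or 328 per Mb, against 241 per Mb in all coding exons. In the matches in collagen genes, 45.7% of the bases belonged to glycine or proline codons, against 24.4% in matches in other coding genes. Those codons made up 34.0% of all codons in the collagen sequences. Their share in other coding sequences was not computed, so 45.7% and 24.4% cannot be compared beyond the codon use of each set. The matches reached the same scores, with medians of 13.2 in collagen genes and 13.3 in other coding genes.

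Few of these matches were bound. A summit lay within 50 bp of 5 of the 63 matches in collagen coding exons (7.94%, interval 2.63 to 17.6%), against 17.2% of 8361 matches in all coding exons (interval 16.4 to 18.0%). Outside coding exons the share was 22.2% of 644 matches in collagen bodies (interval 19.1 to 25.6%) and 18.5% in all coding bodies. Without matches in masked repeats, that share was 25.6% of 446 in collagen bodies (interval 21.6 to 29.9%) and 23.1% in all coding bodies. Summits lay at 46.9 per Mb in collagen coding exons and at 77.0 per Mb in all coding exons. These shares rest on 5 bound matches, in Col6a3, Col7a1, Col8a2, Col16a1 and Col20a1, and the intervals of the collagen and the general coding share touch, so a difference was not detectable with this number of matches. Of the matches without a peak, 3 that lay almost wholly in glycine and proline codons are shown to set beside the bound ones; they were chosen after their values were seen.

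Col7a1, exon 110, chr9:108981289-108981307, minus strand: gaccaACACCACCAGGTGGCCCTGgggga
Col18a1, exon 12, chr10:77077799-77077817, plus strand: gtcctGGGACACCAGGGGGCCCCGggggg
Col4a3, exon 46, chr1:82711010-82711028, minus strand: gtccaGGTACACCAGGTGGCCCTGggctt

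All 3 run antisense to their gene, and 89.5%, 84.2% and 84.2% of their bases lay in glycine or proline codons in the order shown. Other unbound matches at 84.2%, in Col4a1, Col4a4, Col10a1 and Col22a1, were sense, and another in Col4a3 was antisense. Of all 63 matches in collagen coding exons, 28 were antisense (44.4%), against 52.6% in other coding genes. The 3 shown therefore do not stand for the direction of such matches. Their motif scores were 17.6 in Col7a1, 17.9 in Col18a1 and 14.7 in Col4a3. Unbound matches were not all of this kind: the highest score of any collagen coding match, 19.8, belonged to one without a peak in exon 39 of Col18a1 that lay in no glycine or proline codon.

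**Figure D5:**
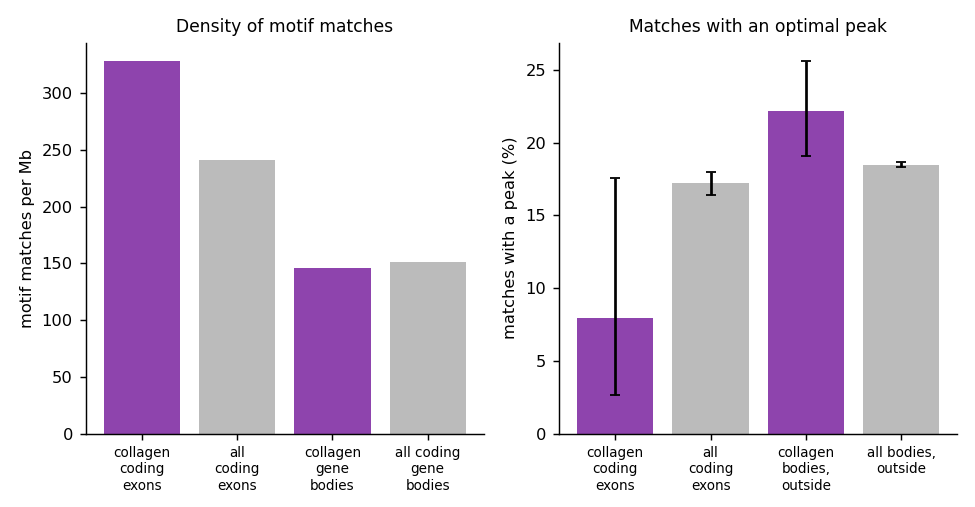
Left, motif matches per Mb in collagen coding exons, all coding exons, collagen gene bodies and all coding gene bodies. Right, percent of matches with a summit within 50 bp, in coding exons and outside them, with exact 95% intervals. Collagen coding exons have the most matches per Mb (328) and the smallest share with a peak (7.94%).

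Replicates were compared on peaks of the optimal list, which already retains peaks of reproducible rank in these data. Much of the sharing is set by that choice, so shares are given beside those of all optimal peaks. Among the 72514 strongest peaks of each replicate, a summit within 100 bp was found in both lists for 209 of 247 collagen peaks (84.6%, interval 79.5 to 88.9%), against 83.1% of all peaks. By class this was 73.4% of 64 fibrillar peaks, 87.5% of 24 type IV peaks and 88.7% of 159 peaks of other chains. Col5a1, with 7, and Col27a1, with 4, held most of the fibrillar peaks that were missing from a list, all with a signal of 30.5 or less. The conservative list held 89.5% of collagen peaks and 88.5% of all peaks. Signals in the replicate lists ranked 241 collagen peaks alike, with a Spearman rho of 0.960, beside 0.949 over 70413 of all optimal peaks. Of the 145 pairings of a member with a peak near its TSS, 8 had the TSS of another coding gene nearer, as in Col11a2, Col16a1 and Col9a3.

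Genes that modify, export, trim, crosslink, bind and degrade collagen were counted by the same rule. A peak lay within 10 kb of a TSS in 41 of 47 of them (87.2%), against 74.2% of all coding genes. All 17 hydroxylation and folding genes had one, with P3h3, a prolyl hydroxylase, at 487 and P4ha3, a catalytic chain of the main prolyl hydroxylase, at 468. Serpinh1, the collagen chaperone Hsp47, had one of the weakest at 32.7. All 4 export genes had one, as did 7 of the 8 propeptide processing genes, the exception being Adamts3. Crosslinking enzymes had one in 3 of 5, with none at Loxl2 and Loxl4. Of the 5 degradation genes 4 had one, all but Mmp13, led by the gelatinase Mmp2 at 565, and of the 8 receptors 6 did, the exceptions being Itga11 and Gp6.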

How the data were processed

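CTCF ChIP-seq of newborn mouse stomach was deposited as 5 peak lists in mm10, of which 4 were used: the optimal and conservative lists and the relaxed list of each replicate. Per the labels and file descriptions, the lists come from the alignments with a control alignment, and the optimal and conservative lists are thresholded by IDR, which retains peaks of reproducible rank. For the aligner, the peak caller and the threshold, the name or value is not given in the sources used here. Each peak carries a signal and the −log10 of a q-value, both deposited by the authors, and the deposited position of its summit relative to its start. Read numbers were not used, so depth is unknown, and the replicate signals given side by side are not scaled to each other.

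Genes and transcripts came from GENCODE release M21 and sequence from the mouse reference of the same build. The motif matrix came from 986 of the 1000 strongest non-collagen peaks of chromosome 1, with a threshold score of 11.6, met by 1% of 100000 random autosomal windows of 50 bp on either side. A motif match counted as bound when a summit lay within 50 bp of its centre, and as coding when its centre lay in a coding exon. Replicates were compared through summits within 100 bp. The 95% intervals are exact (Clopper-Pearson). They reflect counting error only, since genes and peaks are not independent. No test was run, because there is 1 group. Python 3.11.15, numpy 2.4.6, pandas 2.3.3, scipy 1.17.1, pysam 0.24.0 and matplotlib 3.10.9 were used, and peak placement, replicate matching and motif calls were checked on simulated data.

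The members, classes, gene lists and named genes were chosen with earlier results of these data known. Full values are given for the fibrillar and type IV members, the 10 other chains with the strongest peak near a TSS, members with none, and the 5 with most body peaks. The closing section gives the alternatives.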

Additional observations from a re-analysis of the deposited data

How the results depend on the processing

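Of 70 recomputed values under alternative settings, 51 stayed close to the main value, meaning within 1.5 times for counts and median signals and within the 95% interval for shares and densities. Distance mattered most. With a limit of 1 kb, 20 members, 7 of the fibrillar and 11 of the other chains had a peak near a TSS, beside 47.0% of all coding genes. The median strongest signal was then 63.3, against 84.1 for all coding genes. With 50 kb all 4 type IV members had a peak near a TSS, as did all 42 members and 89.6% of all coding genes. From the start of the gene record the median was 185, and from starts of coding transcripts 210, against 173 and 199 for all coding genes; both settings were chosen after seeing the data. With a replicate left out the median ran from 136 to 185, in lists not scaled to the optimal one. Without 10 kb around every TSS, 25 members had a body peak and the density was 32.5 per Mb. That setting left 3174087 of 4842462 bp of collagen bodies, and little or none in short members. Part of the fall in members was therefore fixed by the setting. With only the stronger 50% of the peaks the body density was 23.1 per Mb. The same body values were not computed for all coding genes. The motif share was 36.0% at the stricter score met by 0.1% of random windows, 88.1% among the stronger 50% and 59.5% with 100 bp on either side. The share in both replicates was 97.6% against all relaxed peaks, 88.9% from the conservative list and 100% among the stronger 50%. Counting any overlap with a coding exon gave 10.1%. The cause of these shifts was not tested.

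Depth is unknown, so a gene without a peak may hold CTCF below the threshold of the lists. Type IV shares rest on 4 genes and 24 peaks, and coding exon shares on 5 bound matches. Tissue mixes cell types, and a peak cannot be assigned to any of them. Distance to a TSS does not show which gene a site acts on.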

Other observations

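The type IV genes on the X chromosome, which the choice of autosomal genes leaves out, repeat the head-to-head arrangement. Col4a6 (chromosome X, 141165403 to 141474076, minus strand, 309 kb) had 2 optimal peaks within 10 kb of a TSS, the stronger with a signal of 210, and 6 in its body. Col4a5 (chromosome X, 141475385 to 141689234, plus strand, 214 kb) had none within 10 kb of a TSS and 2 in its body. Since no peak lay within 10 kb of the start of Col4a5, none lay between the starts of this pair. The 2 peaks counted for Col4a6 were therefore not at a shared promoter region. With Col4a5 and Col4a6 counted, 3 of the 6 type IV genes had a peak within 10 kb of a TSS.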
